A study of Mus musculus with 8 samples.

Results

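The genes described here are 10 components of the transforming growth factor beta (TGF-beta) pathway in mouse hematopoietic stem cells (HSCs): the ligand Tgfb1, the receptors Tgfbr1, Tgfbr2 and Eng, the signal carriers Smad2, Smad3 and Smad4, the inhibitors Smad7 and Ski, and the secreted target Tgfbi. They were taken by gene symbol from a table of 22065 named genes, all 10 had a row, and all 10 passed the expression filter among 16444 genes in all. Tgfbi was chosen by its measured counts, for the pattern between the groups in these same libraries, so its values are a description with no test, and it is left out of every count of genes past the threshold. The other 9 were taken for their place in the pathway, with earlier results of these data known.

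The RNA-seq data held 8 libraries of 100 HSCs each, sorted from bone marrow as Lineage- CD150+ CD48- EPCR+ cells 1 week after Poly:IC in C57BL/6 mice of 8 to 10 weeks of age. The paper also requires c-Kit, the product of Kit, in its definition of long-term HSCs. In 4 libraries the cells came from Mitol Flox/Flox; MX1-cre mice (MitolΔ/Δ), which lose the gene of the mitochondrial ubiquitin ligase MITOL once Poly:IC switches on the interferon-responsive Mx1 promoter that drives Cre. In the other 4 they came from Mitol Flox/Flox mice without Cre (control), which also received Poly:IC, so both groups carried the floxed gene and had been through an interferon response. Mx1-driven Cre acts in many hematopoietic and non-hematopoietic cells and not in HSCs alone. Counts per library ran from 7214935 to 12398138. No label ties a library to an animal, so p-values measure the spread between these libraries, which may be partly technical. Counts of the targeted gene Marchf5, taken over the whole gene, were 231.7 to 308.5 in MitolΔ/Δ and 262.2 to 333.5 in control HSCs after normalization, and they could not separate deleted from remaining exons. The groups are therefore named by their labels throughout.

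TGF-beta ligands are secreted in a latent form and, once released, bind the type II receptor TGFBR2, which phosphorylates the type I receptor TGFBR1. Activated TGFBR1 phosphorylates SMAD2 and SMAD3, which join SMAD4, enter the nucleus and act on target genes, while SMAD7 blocks the receptor and SKI holds SMAD complexes at target genes in a repressed state. In bone marrow the pathway is known for keeping HSCs in quiescence.

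Of the 9 tested genes, 3 fell in MitolΔ/Δ HSCs and 0 rose, at an adjusted p under 0.05 (edgeR, quasi-likelihood test, Benjamini-Hochberg over the 16444 genes tested). At an unadjusted p under 0.05 the counts were 3 lower and 1 higher (Tgfb1), as they were at an adjusted p under 0.05 by DESeq2, while limma-voom gave 3 lower and 0 higher. The 3 were the corepressor Ski, the receptor-activated Smad3 and the co-receptor Eng, with log2 fold changes between -0.45 and -0.28. Ski alone passed when MitolΔ/Δ replicate 2 or 3 or control replicate 2 was left out, and 2 to 4 genes passed when any other library was. Over all genes tested, 8.43% of genes were past this threshold, 4.68% higher and 3.75% lower in MitolΔ/Δ HSCs, so that 770 of 1386 calls (55.56%) were higher ones. With upper quartile factors in place of TMM, 41.28% of 1439 calls were higher, and leaving out a library gave 359 (without control replicate 2) to 2501 calls (without MitolΔ/Δ replicate 4). The median log2 fold change was -0.12 over the 9 genes and -0.020 over all genes tested. Tgfbi differed in the other direction and by more than any of the 9, with a mean 5.04 times that of control HSCs. The ligand Tgfb1 was higher in every MitolΔ/Δ library than in any control library without passing the threshold. The 2 groups did not overlap for 4 of the 9 genes (Tgfb1 upward, and Smad3, Ski and Eng downward), against 15.4% of all genes tested, 8.17% with MitolΔ/Δ HSCs higher and 7.18% with MitolΔ/Δ HSCs lower.

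**Figure D1:**
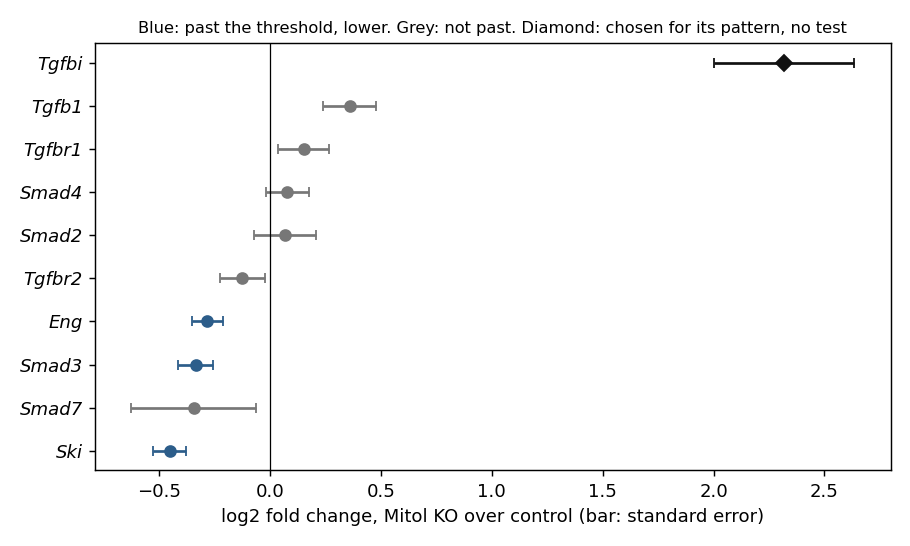
Log2 fold change of the 10 genes, MitolΔ/Δ over control HSCs, with the standard error of the edgeR fit as the bar. Ski, Smad3 and Eng lie between -0.45 and -0.28, Tgfb1 lies at 0.36 and Tgfbi, drawn as a diamond with no test, at 2.32.

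The sequences just before the start sites of Tgfbi, Smad3 and Ski are shown because Smad3 and Ski fell together while Tgfbi differed in the opposite direction. They were read from GRCm39 upstream of the canonical GENCODE start, 250 bases each, and any base inside an annotated exon was left out. For Tgfbi this leaves chr13:56757118-56757335 (plus strand, 32 exonic bases next to the start left out), for Smad3 chr9:63665477-63665726 (minus strand) and for Ski chr4:155307544-155307793 (minus strand). Capitals mark CAGAC in either orientation (CAGAC or GTCTG), the core letters of the SMAD-binding element, and GGCGCC, a GC-rich sequence that SMAD3 and SMAD4 can also contact.
Tgfbi: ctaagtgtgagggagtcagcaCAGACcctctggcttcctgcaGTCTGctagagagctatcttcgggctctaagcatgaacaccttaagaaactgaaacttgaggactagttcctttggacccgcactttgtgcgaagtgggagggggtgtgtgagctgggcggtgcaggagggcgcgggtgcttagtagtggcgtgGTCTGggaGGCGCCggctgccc
Smad3: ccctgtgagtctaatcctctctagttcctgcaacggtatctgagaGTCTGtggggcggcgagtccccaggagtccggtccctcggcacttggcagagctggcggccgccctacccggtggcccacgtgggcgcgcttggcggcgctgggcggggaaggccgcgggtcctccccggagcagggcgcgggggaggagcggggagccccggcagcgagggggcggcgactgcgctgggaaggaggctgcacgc
Ski: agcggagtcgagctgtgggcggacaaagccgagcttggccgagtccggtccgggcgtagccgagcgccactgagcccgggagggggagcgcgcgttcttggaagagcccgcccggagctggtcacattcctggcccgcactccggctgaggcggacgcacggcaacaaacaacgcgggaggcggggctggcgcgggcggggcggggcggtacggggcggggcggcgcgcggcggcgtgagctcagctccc
The Tgfbi window held 3 CAGAC matches, the farthest 229 and the nearest 54 bases before the start, and 1 GGCGCC match 46 bases before it. The Smad3 window held 1 CAGAC match, 205 bases before the start, and no GGCGCC, and the Ski window held neither. Among 21770 promoters of protein-coding genes with 250 bases each, 41.3% held CAGAC in either orientation and 9.31% held GGCGCC. The longer palindrome GTCTAGAC, which contains neither of the other motifs, was in none of the 3 windows and in 0.239% of all promoters. Such matches are a description of the letters and not of binding. The 3 genes were picked with their directions known. Eng also fell and its sequence is not shown, so the windows do not compare genes by direction.

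Tgfb1 encodes TGF-beta 1, a latent secreted ligand, and lies on chromosome 7 (25386390 to 25404506, plus strand, GRCm39 as for all positions here). Its normalized counts, scaled by DESeq2 size factors, were 1702, 1486, 1569 and 1406 in MitolΔ/Δ replicates 1 to 4 and 1341, 1383, 1048 and 976 in control replicates 1 to 4. All 4 MitolΔ/Δ libraries lay above all control libraries, but the lowest of the former and the highest of the latter were close. The means were 1541 ± 126 and 1187 ± 205 (SD, n = 4 each), a log2 fold change of 0.36 with a standard error (SE) of 0.12 (edgeR adjusted p = 0.0796), which did not pass. The call turned on the setting. Tgfb1 passed without MitolΔ/Δ replicate 4 (0.42, adjusted p = 0.0414), by the Wald test of DESeq2 (adjusted p = 0.0390) and with the replicate number as a block (adjusted p = 0.0497). In bulk libraries a change in the number of cells that express a gene and a change in RNA per cell cannot be told apart, for this gene as for all others here.

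The receptor kinases did not pass the test in either direction. Tgfbr1, the type I receptor (chromosome 4, 47353134 to 47414931, plus strand), ranged from 496 to 648 normalized counts in MitolΔ/Δ HSCs and from 456.5 to 578 in control HSCs, and the log2 fold change was 0.15 (SE 0.11, adjusted p = 0.427). Tgfbr2, the type II receptor that binds the ligand first (chromosome 9, 115913361 to 116004800, minus strand), ranged from 843 to 1065 and from 957 to 1096.5, and the log2 fold change was -0.12 (SE 0.10, adjusted p = 0.465). Both genes overlapped between the groups, and the estimates of the pair had opposite signs. Opposite-strand genes share 0.921% of the exon bases of Tgfbr1 (Gm32435) and 5.04% of those of Tgfbr2 (Gm4668), and the strand setting of the counting is not given in the sources used here.

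Eng, the co-receptor endoglin that binds ligand together with the receptor kinases and is well known from endothelium and primitive hematopoietic cells, fell slightly (chromosome 2, 32535543 to 32574661, plus strand). Normalized counts were 4861, 4611, 4637 and 4579 in MitolΔ/Δ replicates 1 to 4 and 5812, 5665, 5619 and 5356 in control replicates 1 to 4. The groups did not overlap, and the libraries within each were very alike, with a coefficient of variation of 2.75% in MitolΔ/Δ and 3.39% in control HSCs. From 5613 ± 190 in control to 4672 ± 128 in MitolΔ/Δ HSCs the log2 fold change was -0.28 (SE 0.07, edgeR adjusted p = 0.0304). This call was easily lost. It missed the threshold without MitolΔ/Δ replicates 1, 2 or 3 (adjusted p = 0.0591, 0.0862 and 0.0906) or control replicates 1, 2 or 3 (0.0614, 0.0865 and 0.0676), with no expression filter (0.0511) and with the replicate number as a block (0.0535), while the log2 fold change stayed between -0.34 and -0.25. Of the 7798 exon bases of Eng, 860 are shared with the opposite-strand gene Fpgs, whose reads cannot be told apart without strand. Among endothelial markers Cdh5 and Flt1 were under 20 normalized counts in every library, 1 of 6 tested genes of that list fell (Tie1, log2 fold change -0.28, adjusted p = 0.0346, past in 0 of 8 fits that left out a library), and the summed level was 6933 to 8841 in MitolΔ/Δ and 7896 to 10077 in control HSCs. Most of that sum was Tie1 (3344 to 3609 and 4094 to 4380) and Vwf (2006 to 3442 and 2427 to 4059). Vwf is named after its values were seen. The part of endothelial cells in the difference in Eng was not tested.

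**Figure D2:**
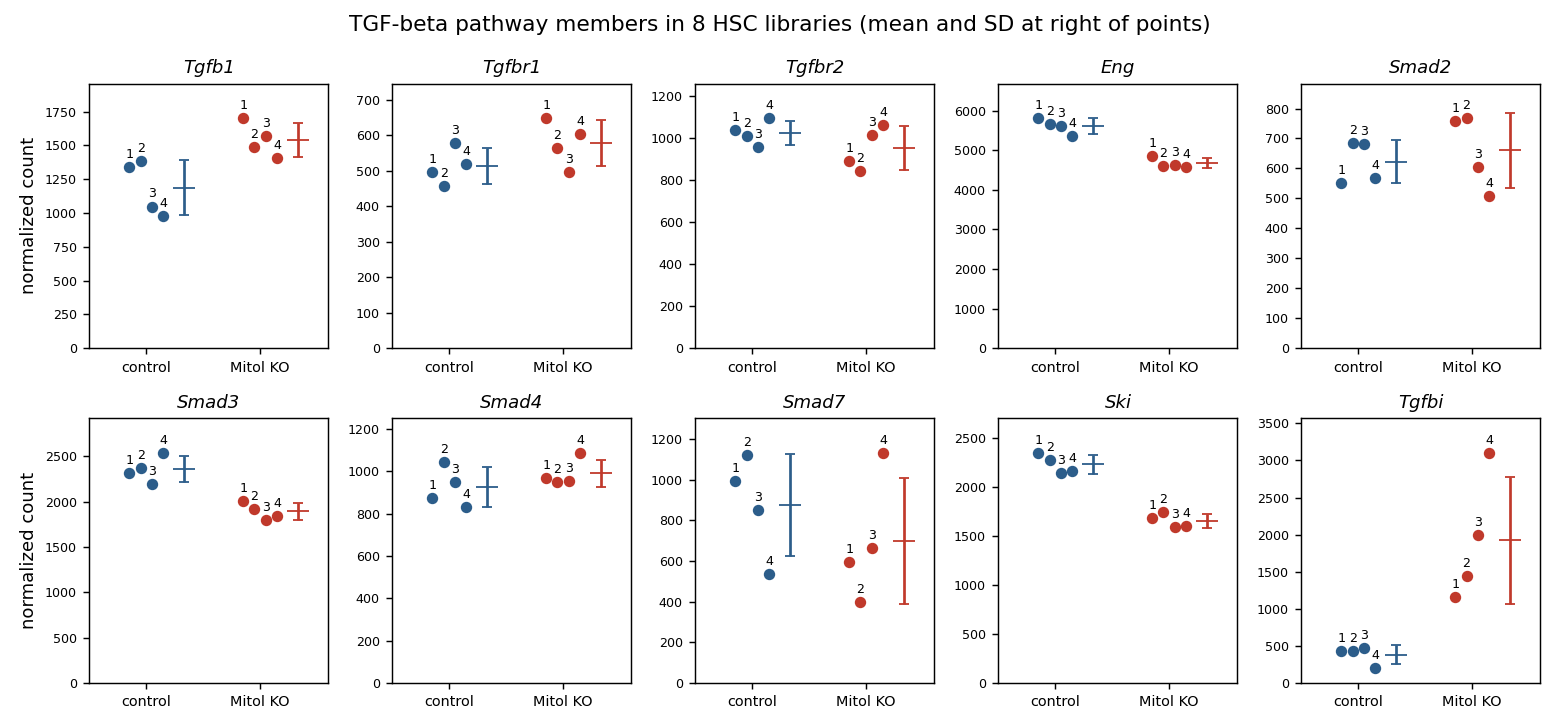
Normalized counts of the 10 genes in each library, with the replicate number above each point and the group mean with its SD beside the points, on axes that start at 0. The groups do not overlap for Tgfb1, Eng, Smad3, Ski and Tgfbi, and MitolΔ/Δ replicate 4 is the highest MitolΔ/Δ library for Tgfbr2, Smad4, Smad7 and Tgfbi.

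Of the receptor-activated SMADs, Smad3 fell and Smad2 did not pass the test. Smad3 (chromosome 9, 63554049 to 63665476, minus strand), which binds DNA directly, had 2009, 1919, 1801 and 1841 normalized counts in MitolΔ/Δ replicates 1 to 4 and 2319.8, 2369.7, 2193 and 2537 in control replicates 1 to 4. Every MitolΔ/Δ library was below every control library. It fell from 2355 ± 142 to 1892 ± 92.1, a log2 fold change of -0.33 (SE 0.08, edgeR adjusted p = 0.0272). The direction held in each fit, but the call was lost without MitolΔ/Δ replicate 2 (adjusted p = 0.0689), MitolΔ/Δ replicate 3 (0.0923), control replicate 2 (0.0787) or control replicate 4 (0.0738). Smad2, its close relative on chromosome 18, ranged from 509 to 768 in MitolΔ/Δ and from 553 to 686 in control HSCs. The estimate of 0.07 on the log2 scale was smaller than its SE of 0.14 (adjusted p = 0.800), the groups overlapped fully, and leaving out MitolΔ/Δ replicate 1 or 2 brought it to -0.0016 or -0.0054. Whether the changes of Smad2 and Smad3 differed from each other was not tested.

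Smad4, the common partner of all activated SMADs, was close to level. It ranged from 948 to 1087 in MitolΔ/Δ and from 832 to 1043 in control HSCs, or 0.08 on the log2 scale (SE 0.10, adjusted p = 0.646), or 0.05 without MitolΔ/Δ replicate 4, which stood above the other 3 of its group.

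The inhibitors behaved unlike each other within their groups. Smad7, the inhibitory SMAD that TGF-beta signaling itself induces, had 596, 397, 666 and 1133 normalized counts in MitolΔ/Δ replicates 1 to 4 and 993, 1124, 853 and 534 in control replicates 1 to 4. MitolΔ/Δ replicate 4 was the highest and control replicate 4 the second lowest of the 8 libraries. The coefficient of variation, 44.6% in MitolΔ/Δ and 28.9% in control HSCs, was the largest of the 9 tested genes in either group. The means of 698 ± 312 and 876 ± 253 gave a log2 fold change of -0.34 (SE 0.28, adjusted p = 0.473). Leaving out MitolΔ/Δ replicate 4 moved it to -0.66 (adjusted p = 0.0731), control replicate 4 to -0.52 (0.302), MitolΔ/Δ replicate 2 to -0.15 (0.788) and control replicate 2 to -0.20 (0.747), and none of these passed.

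Ski, the corepressor that binds SMAD complexes and keeps their target genes silent, showed the most stable change of the 9 tested genes (chromosome 4, 155238532 to 155307543, minus strand). Normalized counts were 1677, 1739, 1589 and 1595.5 in MitolΔ/Δ replicates 1 to 4 and 2345, 2274, 2136 and 2162 in control replicates 1 to 4. The lowest control library was well above the highest MitolΔ/Δ library. Ski fell from 2229 ± 97.4 to 1650.1 ± 71.3, a log2 fold change of -0.45 (SE 0.08, edgeR adjusted p = 0.00823). It stayed past the threshold in all 8 fits that left out a library (adjusted p from 0.00708 to 0.0384) and under all 6 other settings.

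Tgfbi encodes TGFBI (transforming growth factor beta induced), a secreted matrix protein with fasciclin domains that binds integrins, and it is named for its induction by the pathway (chromosome 13, 56757336 to 56787375, plus strand). Normalized counts were 1158, 1435, 1990.1 and 3102 in MitolΔ/Δ replicates 1 to 4 and 429.9, 435, 466 and 195 in control replicates 1 to 4. The groups were far apart, and each also held a library away from the rest, replicate 4 being the highest in MitolΔ/Δ and the lowest in control HSCs. The means were 1921 ± 860 and 382 ± 125, a log2 fold change of 2.32 (SE 0.32) that is given with no p because the gene was chosen for it. It was 2.01 without MitolΔ/Δ replicate 4, 2.10 without control replicate 4 and between 2.25 and 2.34 with other normalizations, filters and tools. Among 12013 genes with a mean of at least 50 normalized counts, Tgfbi ranked 13 from the top by log2 fold change.

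TGFBI is also made in abundance by monocytes and macrophages, so their markers are given beside it. The lineage antibodies of the sort, given in the study's methods as Ter-119, CD4, CD8a, B220, Gr-1 and Mac-1, are meant to remove mature erythroid, lymphoid and myeloid cells. Of 15 such genes 13 had a row and 9 were tested, of which 1 rose (Ctss, log2 fold change 0.73, adjusted p = 0.0436) and 0 fell, and Ctss passed in 2 of 8 fits that left out a library, those without MitolΔ/Δ replicates 1 or 4 (adjusted p up to 0.121 in the other 6). The Wald test of DESeq2 called 2 higher (Ctss and Itgam), as many as had an unadjusted p under 0.05 by edgeR, and limma-voom called 0. Of the 9 tested, 7 had a log2 fold change above 0, with a median of 0.38. Itgam, which encodes the Mac-1 chain CD11b and is named, like Lyz2, after the values were seen, had 23.5, 22.9, 61.3 and 76.2 normalized counts in MitolΔ/Δ replicates 1 to 4 and 17.1, 24.5, 4.7 and 13.5 in control replicates 1 to 4 (log2 fold change 1.61, edgeR adjusted p = 0.0768, DESeq2 adjusted p = 0.0265), so the groups overlapped. The summed level of the list was 2325 to 2688 in MitolΔ/Δ and 2226 to 2628 in control HSCs, most of it Lyz2 (1529.6 to 1689 and 1575 to 1782). Without Lyz2, a sum added after the data were seen, it was 776 to 1134 and 534 to 865, which still overlap, with MitolΔ/Δ replicate 4 the highest and control replicate 4 the lowest, as for Tgfbi. MitolΔ/Δ replicate 4 was also the highest of its group for the neutrophil, megakaryocyte, endothelial and erythroid sums. In those sums control replicate 4 was not the lowest control library. MitolΔ/Δ replicate 4 was not the highest for the HSC, stroma and B and T sums. Cx3cr1 and F13a1 were under 20 normalized counts in every library, and Ly6c2 and Ccr2 were not analysed here. Megakaryocyte markers varied more, with a summed level of 587, 635, 2298 and 3414 in MitolΔ/Δ replicates 1 to 4 and 1076 to 1779 in control HSCs, while 1 of 4 tested fell (Pf4, log2 fold change -1.69, adjusted p = 0.0202). Pf4 lost its call without MitolΔ/Δ replicates 2 or 3 or control replicate 4 (adjusted p up to 0.0641). Erythroid markers rose in 2 of 5 tested (Gata1 and Hbb-bt, log2 fold changes 3.30 and 1.29, adjusted p = 0.00381 and 0.0442), with Hbb-bt past in 3 of 8 fits that left out a library, those without MitolΔ/Δ replicate 4 or control replicates 1 or 4 (adjusted p up to 0.105 in the other 5). The summed level of the erythroid list was 5212 to 6166 in MitolΔ/Δ and 4628 to 6272 in control HSCs. Most of it was Car2 (3631 to 4550 and 3885 to 6021), which is named after its values were seen. That sum therefore says little of the other erythroid genes. Of the 5 tested, 4 had a log2 fold change above 0, with a median of 1.29, and Car2 stood at -0.22. Neutrophil markers summed to 485 to 1023 and 405 to 616, and most of each sum was Prtn3 (462 to 1006 and 332 to 566). Of 2 tested, 0 were past the threshold by edgeR and limma-voom and 1 (Prtn3) by DESeq2 and at an unadjusted p under 0.05. S100a9 and S100a8, named after their values were seen, were not tested and went the other way from Prtn3. S100a9 had 0.0 normalized counts in every MitolΔ/Δ library and 2.6, 21.3, 11.3 and 20.7 in control replicates 1 to 4. S100a8 had 1.6, 0.0, 0.0 and 0.0 against 0.0, 31.9, 19.8 and 51.2, so the groups overlapped. Elane, Mpo, Ltf and Camp were under 20 in every library. For stroma and for B and T cells, 1 gene each was tested and did not pass. The part of any of these cells in the level of Tgfbi was not tested.

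The HSC markers of the sort also moved. Of 10 genes 3 fell, among them Kit and Hlf (log2 fold changes -0.75 and -0.79, adjusted p = 0.00705 and 0.00381), and Cd48, a marker that the gate excludes, was higher (log2 fold change 1.72, adjusted p = 0.0450) at 22.2 to 63.4 against 4.5 to 21.7 normalized counts. The call of Cd48 was kept in 2 of 8 fits that left out a library, those without MitolΔ/Δ replicate 4 or control replicate 3 (adjusted p up to 0.138 in the other 6). Procr and Slamf1, which encode EPCR and CD150, were present in every library at 387 to 719 and 299 to 669 normalized counts. The summed level of the list was 25043 to 28848 in MitolΔ/Δ and 36762 to 44045 in control HSCs, moving in the same direction as Ski, Smad3 and Eng. Its part in those differences was not tested.

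By likeness of pattern, the genes closest to Tgfbi over the 8 libraries were Cd53, Mapk11, Selp, Bcl3 and Slc4a8. The measure was the root mean square difference of log2 CPM (counts scaled to library size), with each gene centred on its mean, and it was 0.331 for Cd53, 0.38 for Mapk11, 0.426 for Selp, 0.453 for Bcl3 and 0.463 for Slc4a8, against a median of 1.26 over 12012 genes. Cd53, a tetraspanin of leukocytes, had 1919.9 ± 758 normalized counts in MitolΔ/Δ and 476 ± 204 in control HSCs. Selp, which encodes the adhesion molecule P-selectin of platelets and endothelium, had 1430.1 ± 1050 and 192 ± 82.7, and in both Cd53 and Selp replicate 4 was, as in Tgfbi, the highest MitolΔ/Δ and the lowest control library. The genes were found by searching for this pattern, so their likeness is a description and carries no p.

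**Figure D3:**
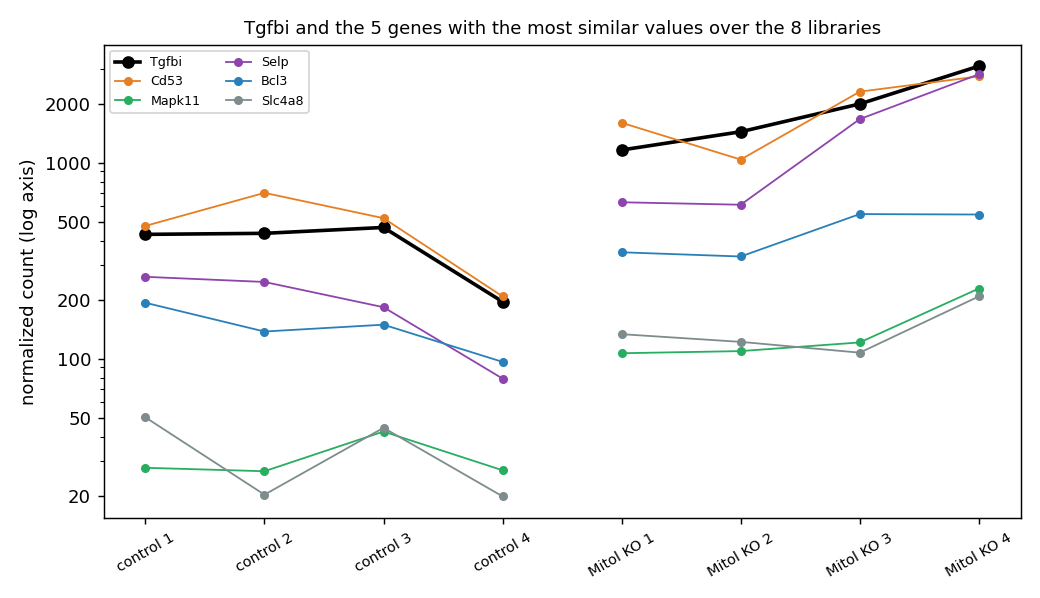
Normalized counts on a log axis of Tgfbi (black) and of the 5 genes with the smallest root mean square difference from it, in each of the 8 libraries, with lines that only join the points of a gene within a group. All 6 genes are higher in each MitolΔ/Δ library than in any control library, and MitolΔ/Δ replicate 4 holds the highest value of Tgfbi, at 3102.

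Levels between genes were compared per length, as TPM (a transcript count scaled by length and by library) with the exon length of GENCODE. In control HSCs the order ran from Eng (232 ± 21.2 TPM, SD, n = 4), Smad3 (132 ± 23.0), Ski (119 ± 11.4), Tgfb1 (74.7 ± 8.41) and Smad7 (58.5 ± 13.5) down to Smad4 (41.1 ± 5.40), Tgfbr2 (37.9 ± 6.18), Tgfbi (31.9 ± 9.06), Tgfbr1 (25.1 ± 4.40) and Smad2 (17.9 ± 2.88). The co-receptor thus stood above the receptor kinases, and Smad3 above Smad2 in every library. Neighbours in this order did not overlap between Eng and Smad3, between Ski and Tgfb1 and between Tgfbr1 and Smad2, and all other neighbours overlapped. In MitolΔ/Δ HSCs Tgfbi stood at position 2 with 148 ± 61.8 TPM, below Eng at 177 ± 10.2 and above Smad3 at 96.3 ± 7.46, though its range overlapped both. Tgfb1 (89.5 ± 10.0) and Ski (80.3 ± 5.31) had ranges that overlapped. The order of these 2 in control HSCs depends on the length used, since with the longest transcript Tgfb1 had 123.89 TPM, at position 2, and Ski 100.34.

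**Figure D4:**
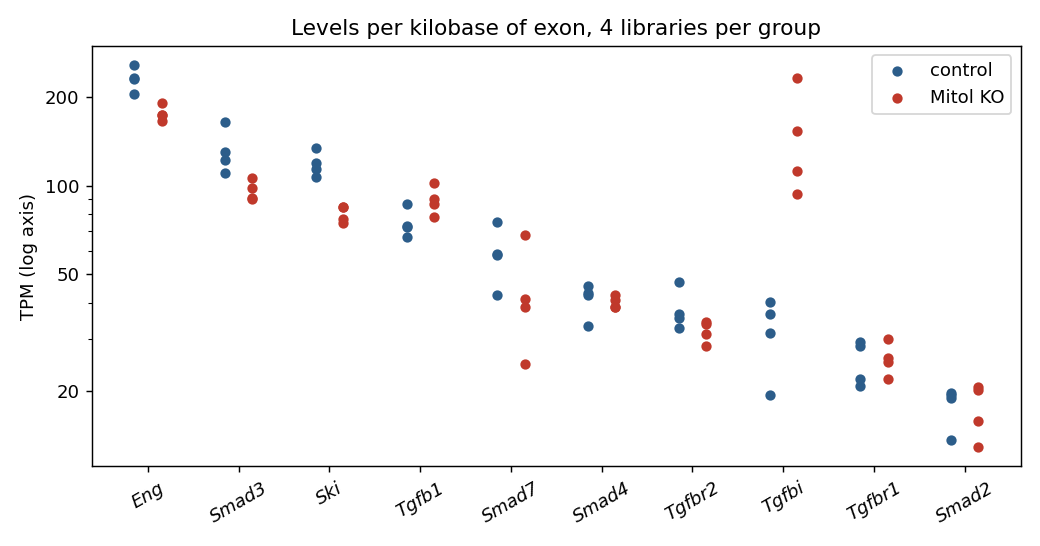
Levels of the 10 genes in TPM on a log axis, 1 point for each library, ordered by the control mean. Tgfbi moves from position 8 of 10 in control HSCs, at 31.9 TPM, to position 2 in MitolΔ/Δ HSCs, at 148 TPM, a larger shift than that of any other gene drawn.

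The rest of the pathway was read from lists of 110 further genes, of which 100 had a row and 84 were tested. Of these 10 rose and 6 fell, 19.0% past the threshold against 8.43% of all genes tested, and their median log2 fold change was -0.027. The lists were chosen with earlier results of these data known, so this count cannot show an enrichment over that share. The count was 5 to 18 when a library was left out, at 8 without MitolΔ/Δ replicate 1, 10 without MitolΔ/Δ replicate 2, 7 without MitolΔ/Δ replicate 3, 5 without control replicate 2, 9 without control replicate 3 and 8 without control replicate 4.

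Among ligands and latency genes, 1 of 8 tested changed and 7 did not pass. Ltbp3, a latent TGF-beta binding protein that helps secrete and store the ligand, fell from 2440 ± 209.6 to 1521 ± 129 normalized counts (log2 fold change -0.70, standard error 0.10, edgeR adjusted p = 0.00381) and kept its call in all 8 fits that left out a library. The ligand Tgfb3 was low, at 17.9 to 55.0 normalized counts, at a log2 fold change of 0.40 (adjusted p = 0.529). Tgfb2, at 0.8 to 17.0, did not pass the expression filter.

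Among other receptors of the family, 2 of 8 tested rose and none fell. Acvr1b, the type I receptor for activin, rose from 965 ± 145 to 1653 ± 369 (log2 fold change 0.76, standard error 0.16, adjusted p = 0.0177) and kept its call in all 8 fits that left out a library. Tgfbr3, the co-receptor betaglycan that presents ligand to TGFBR2, rose from 2563 ± 318 to 3705 ± 434 (log2 fold change 0.51, standard error 0.11, adjusted p = 0.0199), the opposite direction to the related co-receptor Eng. It lost its call without MitolΔ/Δ replicate 3 or control replicates 2, 3 or 4, with adjusted p up to 0.0570. Bmpr2, the type II receptor for bone morphogenetic proteins, stood at a log2 fold change of -0.11 (adjusted p = 0.531).

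Among other SMADs and their partners, 1 of 12 tested fell and none rose. Zfyve9, the anchor protein SARA that brings SMAD2 and SMAD3 to the receptor, fell from 133 ± 25.9 to 77.8 ± 10.8 (log2 fold change -0.79, standard error 0.20, adjusted p = 0.0346). It was past the threshold in 2 of 8 fits that left out a library, those without MitolΔ/Δ replicate 4 or control replicate 1 (adjusted p up to 0.0955 in the other 6). The SMADs of the bone morphogenetic protein branch did not pass, with log2 fold changes of 0.12 for Smad1 (adjusted p = 0.650) and 0.17 for Smad5 (0.245), nor did their inhibitor Smad6 at -0.56 (0.169).

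The list of negative regulators also held ubiquitin enzymes that are not all inhibitors of the pathway, Usp11 among them. Of its 21 tested genes, 2 rose, 1 fell and 18 did not pass. Strap, a receptor-bound WD40 protein that helps SMAD7, and Fkbp1a, which encodes the FKBP12 protein that holds the type I receptor inactive, had log2 fold changes of 0.52 (adjusted p = 0.0299) and 0.47 (adjusted p = 0.0366). Both were past the threshold in 2 of 8 fits that left out a library, those without MitolΔ/Δ replicate 4 or control replicate 1, with adjusted p up to 0.0855 and 0.100 in the other 6. Usp11, a deubiquitinase, stood at -0.54 on the log2 scale (adjusted p = 0.0301) and was past in 3 of 8, those without MitolΔ/Δ replicate 4 or control replicates 1 or 3 (adjusted p up to 0.0848 in the other 5). Skil, the closest relative of Ski, had 639, 534, 635 and 607 normalized counts in MitolΔ/Δ replicates 1 to 4 and 797, 963, 1117 and 549 in control replicates 1 to 4. The log2 estimate of -0.52 (SE 0.18) had the sign of that of Ski but an adjusted p of 0.0861, since control replicate 4 lay within the MitolΔ/Δ range. Without that library it passed (-0.68, adjusted p = 0.0230). The ubiquitin ligase genes Smurf1 and Smurf2 stood at log2 fold changes of -0.10 and 0.10 (adjusted p = 0.683 and 0.560).

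**Figure D5:**
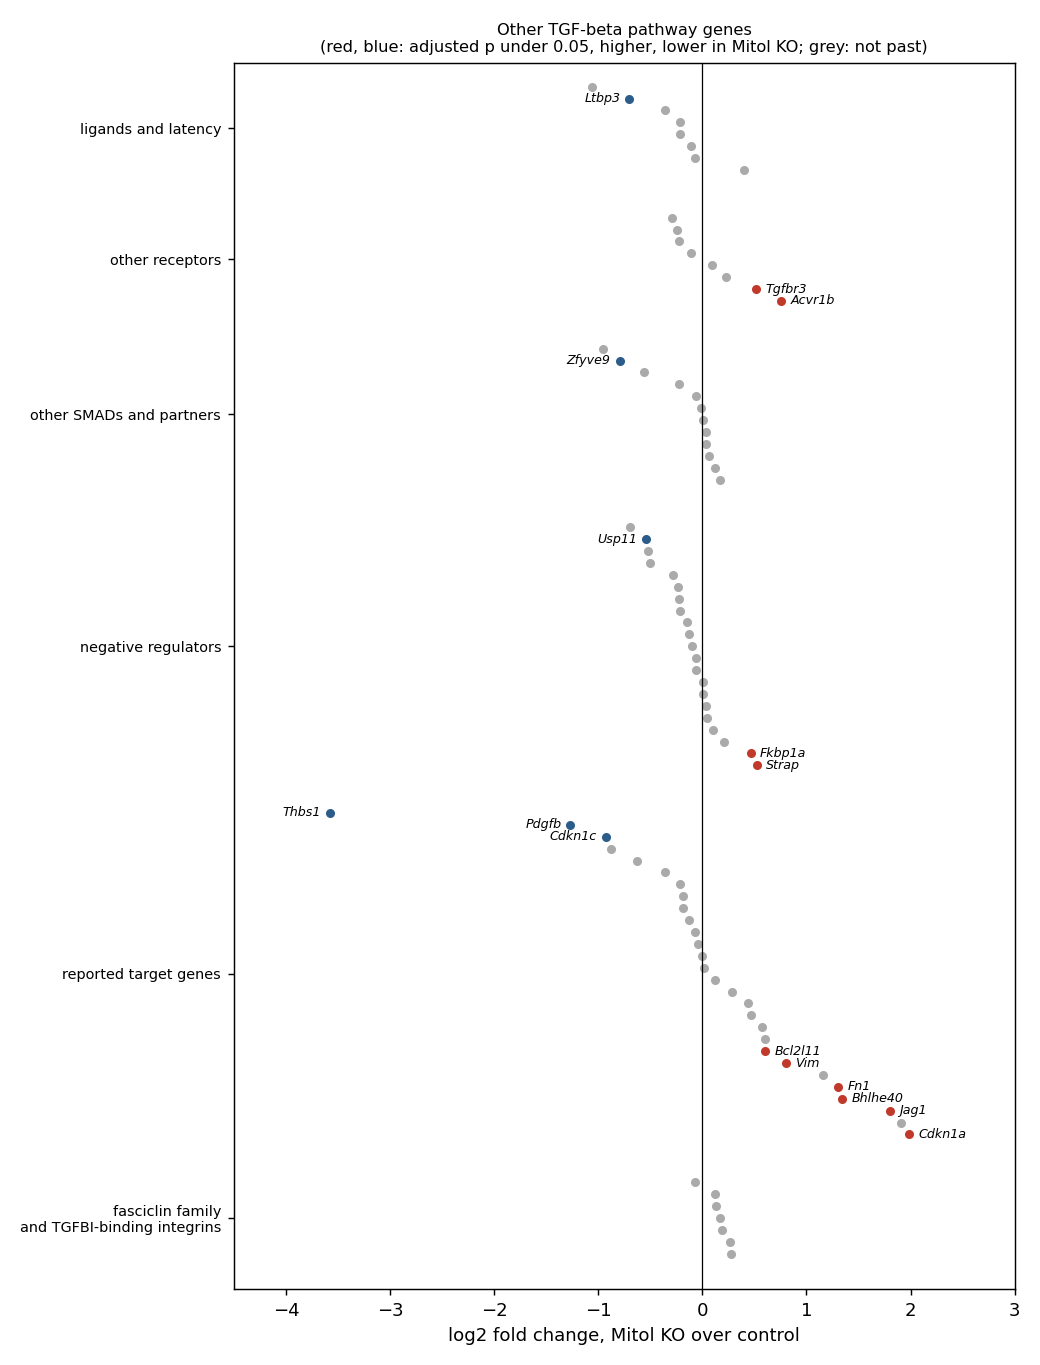
Log2 fold change of the 84 tested genes of the 6 pathway lists, MitolΔ/Δ over control HSCs, 1 point for each gene, with genes past the threshold coloured and named. Points past the threshold lie on both sides of 0, with 9 of the 16 among the reported target genes.

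Among genes reported as targets of the pathway, written from general knowledge across many cell types, 6 of 28 tested rose, 3 fell and 19 did not pass, with a median log2 fold change of 0.07. Vim, which encodes the intermediate filament vimentin, rose from 2325 ± 443 to 4108 ± 405 (log2 fold change 0.80, standard error 0.13, adjusted p = 0.00626). Cdkn1a, the cell cycle inhibitor p21, had 323, 337, 429 and 385 normalized counts in MitolΔ/Δ replicates 1 to 4 and 113, 182, 43.3 and 33.2 in control replicates 1 to 4 (log2 fold change 1.99, standard error 0.41, adjusted p = 0.0170). Cdkn1c, the inhibitor p57 that is typical of quiescent HSCs, fell from 127 ± 22.2 to 67.9 ± 16.1 (log2 fold change -0.93, standard error 0.22, adjusted p = 0.0265). Cdkn1b, the inhibitor p27 of the same list, did not pass (log2 fold change 0.12, adjusted p = 0.641) and is named after its value was seen. Vim and Cdkn1a kept their call in all 8 fits that left out a library, while Cdkn1c lost it without MitolΔ/Δ replicates 1 or 3 or control replicates 2 or 4, with adjusted p up to 0.0763.

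Bcl2l11, which encodes the death-promoting BIM, stood at a log2 fold change of 0.61 (adjusted p = 0.0212), lost without MitolΔ/Δ replicate 1 or control replicates 2 or 3 (adjusted p up to 0.0618). Bhlhe40, a transcriptional repressor, had 1.34 (adjusted p = 0.0270), lost without MitolΔ/Δ replicate 3 or control replicates 2 or 4 (adjusted p up to 0.0688). Thbs1, the secreted activator of latent TGF-beta thrombospondin 1, had 0.0, 1.0, 2.7 and 6.3 normalized counts in MitolΔ/Δ replicates 1 to 4 and 31.7, 12.8, 39.6 and 34.1 in control replicates 1 to 4 (adjusted p = 0.0149, past in all 8 fits that left out a library), and at such low counts its fold change is imprecise. Pdgfb, a growth factor gene, stood at -1.27 (adjusted p = 0.0393) and was past without MitolΔ/Δ replicate 1 or control replicate 3 and not in the other 6 such fits (adjusted p up to 0.120). Of 7 tested genes for other fasciclin proteins and for integrins that bind TGFBI, 0 were past the threshold by edgeR, DESeq2 or limma-voom and 1 (Itgb1) had an unadjusted p under 0.05, and the median log2 fold change was 0.17.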

How the data were processed

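RNA-seq counts of 8 libraries, 4 from MitolΔ/Δ and 4 from control HSCs, were used. The authors aligned reads to mm39 with STAR, merged alignments with SAMtools, used Subread to count reads on genes, and deposited the counts with no normalization. The annotation and strand setting are not given in the sources used here. The table held 23094 rows, the lowest with 11 counts in all, and 1029 rows with no gene symbol (0.335% to 0.467% of a library's counts) were left out.

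The counts were tested with edgeR (version 4.0.16, R 4.3.3) by glmQLFit and glmQLFTest with TMM, filterByExpr and condition as the sole term, and Benjamini-Hochberg adjustment over 16444 genes. Normalized counts are counts divided by DESeq2 (version 1.42.0) size factors. TPM used GENCODE vM39 exon lengths, matched by symbol for 21434 genes. Alternatives were DESeq2 size factors or upper quartile factors in edgeR, no filter, the DESeq2 Wald test, limma-voom (limma 3.58.1), the replicate number as a block, each library left out, and the longest transcript for TPM. A fit that leaves out a library has 3 against 4. The fits were tested on simulated counts.

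The genes and lists were chosen with earlier results of these data known. Genes named were all members, up to 4 list genes past the threshold in each direction by lowest p, a fixed set of pathway genes, and the 5 genes most like Tgfbi among tested genes with a mean of at least 50 normalized counts, by log2 CPM (prior count 2). Some genes of the lists are not reported here. Likeness and motif matches carry no p. The reads carry no molecular identifiers, so they are not independent molecules, and 100 cells per library limit precision.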

Additional observations from a re-analysis of the deposited data

Results flagged for a closer look

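In each group of 4 libraries, the gap between the highest or lowest library and its nearest neighbour was set against Dixon's 95% critical value for the group's range, which chance passes in about 5% of sets. Smad4 in MitolΔ/Δ replicate 4 was at 1086.6 normalized counts, the highest of its group, with a gap of 0.852 of the range, and it was the only set past that value among the 9 genes other than Tgfbi. Tgfbi in control replicate 4 was at 194.9 normalized counts, the lowest of its group, with a gap of 0.866 of the range, which is given as a description and not set against chance because the gene was chosen by its counts in these libraries. Neither library changed the direction of its gene when left out. The log2 fold change of Tgfbi was 2.10 without control replicate 4, and that of Smad4 was 0.05 without MitolΔ/Δ replicate 4.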

How the results depend on the processing

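Of the 9 tested genes 3 were past the threshold, and 1 to 4 were when a library was left out: Ski alone without MitolΔ/Δ replicates 2 or 3 or control replicate 2, and Tgfb1 beside the 3 without MitolΔ/Δ replicate 4. Other pathway genes past the threshold ranged from 5 to 18 (16 with all libraries), marker genes from 5 to 11 (9 with all libraries) and all genes from 359 to 2501 (1386 with all libraries) over these fits, with 359 without control replicate 2 and 2501 without MitolΔ/Δ replicate 4. The DESeq2 Wald test called 2315 genes. Smad2 ranged from -0.0054 to 0.19 in log2 fold change when a library was left out, with -0.0016 without MitolΔ/Δ replicate 1. With the longest transcript, levels in control HSCs were 100.34 TPM for Ski and 123.89 TPM for Tgfb1. The signs of the other 9 log2 fold changes, Tgfbi included, held in all 14 alternative fits.

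No label says whether the replicate numbers pair the samples. Correlations of the deviations of same-numbered libraries were 0.0800, -0.0695, 0.0529 and 0.0669, and only numbers 1 and 3 correlated best with their own. With no reference spread for these values, they cannot settle whether the libraries are paired. With the replicate number as a block 1652 genes were past the threshold, and of the 9 tested genes 3 were (Ski, Smad3 and Tgfb1). With 4 libraries in each group, the call of Eng, Smad3 and Tgfb1 lay within what 1 library decides, and a change that missed the threshold is not shown to be absent.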
